A study of Mus musculus with 4 samples.

Results

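Proteasome genes were followed across the 4 arrays as the probe sets whose single gene symbol begins with Psma, Psmb, Psmc, Psmd, Psme or Psmg. The rule found 99 probe sets of 48 genes, among 18193 genes that had a probe set with 1 symbol. Gamma delta intraepithelial lymphocytes, T cells that live within the gut epithelium, had been sorted from the colon of conventionally raised C57b/6 mice. The untreated group has n = 2 arrays. In the DSS group (n = 2 arrays) the mice received 2% dextran sulfate sodium, which damages the lining of the colon, over 5 days, followed by 3 days of recovery on normal water. Both groups shared strain, housing, sorting, RNA amplification and biotin label, and nothing in the labels tells if the replicates are different animals. P-values therefore measure the spread between these arrays, which may be technical.

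The proteasome is the barrel-shaped protease that degrades ubiquitin-tagged proteins. Its core is built of alpha rings, which gate the barrel, and beta rings, which hold the proteolytic sites. A regulatory particle with ATPases at its base and a lid above receives, deubiquitinates and unfolds substrates. Interferon-gamma makes cells replace the catalytic subunits Psmb5, Psmb6 and Psmb7 with Psmb8, Psmb9 and Psmb10 to form the immunoproteasome, whose products suit presentation on MHC class I, and lymphocytes and macrophages carry immunosubunits without stimulation as well.

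The upstream sequences of 1 constitutive and 2 immunoproteasome genes are shown because interferon-gamma acts on this exchange of subunits through transcription. Sequences are from RefSeq (GRCm38.p6), 5′ to 3′ on the gene's strand and end just before the annotated start. Capitals mark the antioxidant response element core TGACNNNGC in Psmb5 and the STAT motif TTCNNNGAA in Psmb8. Psmb9 lies head to head with the peptide transporter gene Tap1, and the stretch shown is all 225 bases between their starts.
Psmb5, chr14:54617996-54618245, minus strand: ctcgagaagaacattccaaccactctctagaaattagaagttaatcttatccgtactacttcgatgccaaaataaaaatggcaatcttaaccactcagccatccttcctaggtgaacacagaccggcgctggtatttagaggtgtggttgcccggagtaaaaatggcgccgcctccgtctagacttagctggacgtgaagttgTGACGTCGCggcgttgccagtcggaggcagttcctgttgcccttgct
Psmb8, chr17:34197945-34198194, plus strand: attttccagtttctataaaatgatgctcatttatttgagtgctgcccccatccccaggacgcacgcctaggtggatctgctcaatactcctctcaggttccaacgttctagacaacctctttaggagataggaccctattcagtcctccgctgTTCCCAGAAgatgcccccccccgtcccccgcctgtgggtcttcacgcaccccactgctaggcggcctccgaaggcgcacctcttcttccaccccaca
Psmb9, chr17:34187331-34187555, minus strand: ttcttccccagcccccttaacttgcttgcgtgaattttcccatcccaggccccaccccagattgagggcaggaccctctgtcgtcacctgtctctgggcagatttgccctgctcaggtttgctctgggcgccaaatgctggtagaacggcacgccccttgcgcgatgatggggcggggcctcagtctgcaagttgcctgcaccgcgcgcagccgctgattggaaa
The Psmb5 match, TGACGTCGC, begins at position -47 from the start, and the Psmb8 match, TTCCCAGAA, at position -97. No match to TTCNNNGAA, TGACNNNGC or the doubled interferon regulatory factor motif, on either strand, lies in the Psmb9 stretch shown or in the 250 bases before Psmb10. Promoter windows of 300 bases were found for 40 of the 48 genes. The interferon regulatory factor motif was in windows of 5 of them (12.5%) against 3.44% of all 32851 windows, TTCNNNGAA in 3 (7.5%) against 8.3%, and TGACNNNGC in 6 (15%) against 12.4%. In each case the first share is of genes and the second of windows. The 40 genes had 43 windows, and 5, 3 and 6 of these held the motifs. The 5 genes with the interferon regulatory factor motif were Psmb3, Psmd4, Psmd9, Psme1 and Psmg4. Psmb7 had no window to search, and the other catalytic subunits were not among the 5. These are matches of letters, not binding sites, and the motifs do not overlap in the sequences shown.

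Several features of the arrays bear on every value below. Deposited signals are scaled so that each array has a trimmed mean of 500, with 2% of probe sets trimmed at either end. The medians of the arrays were 193.8 and 213.9 untreated against 157.1 and 163.3 after DSS. The mean signal of the 16 hybridisation control probe sets was 61287 and 42846 on the untreated arrays but 9736 and 10192 on the DSS arrays. It followed the groups, and its part in the results was not tested. Of 19 lymphocyte markers, 15 were on the array and tested, 3 higher and 6 lower on both DSS arrays, against 17.2% and 23.8% of all genes. Their summed signal was 638212 and 519846 untreated against 370641 and 382557 after DSS, with Cd3d, Cd3e, Cd3g and Cd247 well above the medians on every array. The 3 higher were Cd3d, Cd3g and Cd69. The 6 lower were Itgae, Zap70, Gzmb, Cd8a, Trgv4 and Klrd1. The 15 markers lie on both sides of a mean signal of 20000, and the shares depend on level. Among all genes of 20000 or more, 6.45% were higher and 42.4% lower, against 25.1% and 14.2% from 1000 to 20000. The median log2 difference of the 15 was -0.43, but -0.15 under quantile normalization and -0.08 once array medians were made equal. The part of level in the lymphocyte counts was not tested. Of 18 macrophage and dendritic cell markers, 14 were tested and 13 were higher on both DSS arrays, with a median log2 difference of 2.25. Of these, C1qc and Mrc1 passed the filter described below through the DSS arrays alone. Their summed signal over 17 genes was 12351 and 6480 untreated against 67366 and 93053 after DSS, and Cd163 lay below the median of every array. Macrophages also express proteasome genes, and the part of these cells in the values below was not tested. Of the other marker lists, neutrophil (7 tested) had 0 higher and 2 lower, B and plasma cell (6) 1 and 1, stroma (6) 0 and 1, and colonic epithelium (14) 4 and 2. Summed epithelial signal was 22705 and 15725 untreated against 26253 and 22430 after DSS. Fewer cells of a type and less RNA per cell cannot be told apart in such samples.

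Levels are log2(signal + 32). Differences are DSS minus untreated on that scale, given with the standard error of limma's fit over 12424 genes (n = 2 per group), and understate changes of dim genes. A probe set was tested if it exceeded the median of its array on at least 2 of the 4 arrays, and each gene was read on its brightest such probe set. Of the 48 genes 46 were tested. Psma8, the testis alpha subunit, and Psmb11, the thymus catalytic subunit, did not reach the filter. Their signals were 118 and 225 untreated against 27.3 and 44.4 after DSS for Psma8, and 35.6 and 50.7 against 11.7 and 16.0 for Psmb11. Psme2 was not read because its probe set carries a second symbol. Psmc3ip, a meiotic recombination factor, and Psme3ip1, which binds the activator Psme3, share the prefix without being subunits.

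Of the 46 genes, positive differences were found for 13 of the 17 core subunit genes and 13 of the 20 regulatory particle genes, against 46.1% of all genes, and whether these groups differ was not tested. The median log2 difference was 0.70 over the 17 alpha and beta subunit genes and 0.08 over the 20 ATPases and other regulatory particle genes. It was 0.24 over all 46 and -0.07 over all 12424 genes. Both backgrounds depend on level. From a mean signal of 1000 to 20000, 69.4% of 36 proteasome genes and 59.7% of 3775 genes were positive. Their medians were 0.32 and 0.13, and the 65% positive of the regulatory particle genes is near that share. Limma called 0 of the 46 genes at an adjusted p under 0.05, and percent called over all genes was 0. The smallest adjusted p among them was 0.649. Without untreated replicate 1 limma called 14 of the 46 (10 higher, 4 lower) and 14.4% of all genes, and without untreated replicate 2 it called Psmc4 and 6.08% of all genes. At an unadjusted p under 0.05 there were 3 higher (Psma1, Psma4 and Psmb7) and 1 lower (Psmc4), where 3.71% and 3.81% of all genes were.

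A gene is called separated here when both DSS arrays lay on the same side of both untreated arrays. By this count 13 of 46 genes were higher (28.3%) and 6 lower (13%), against 17.2% higher and 23.8% lower over all genes. Of the 38 proteasome genes with a mean signal of 1000 or more, 12 were higher (31.6%) and 4 lower (10.5%), against 24.1% and 15.7% of all genes of that level. Those shares would give 9.16 and 5.97 of 38 genes, so the counts lie within a few genes of this background. After scaling to a common median 23 of 46 were higher and 4 lower, against 30.8% and 12.5% of all genes, and after quantile normalization 12 and 7, against 19% and 19.2%. Of the core subunit genes 9 were higher and 2 lower. Of the regulatory particle genes 3 were higher and 4 lower. Separation by at least 2-fold was met by Psmb7, higher, and Psmd7, lower, against 2.18% higher and 2.38% lower over all genes. Psmb7 exceeded the array median in the DSS samples alone and Psmd7 in the untreated samples alone, so both had to differ to be tested. Without them 12 of 44 genes were higher and 5 lower.

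**Figure D1:**
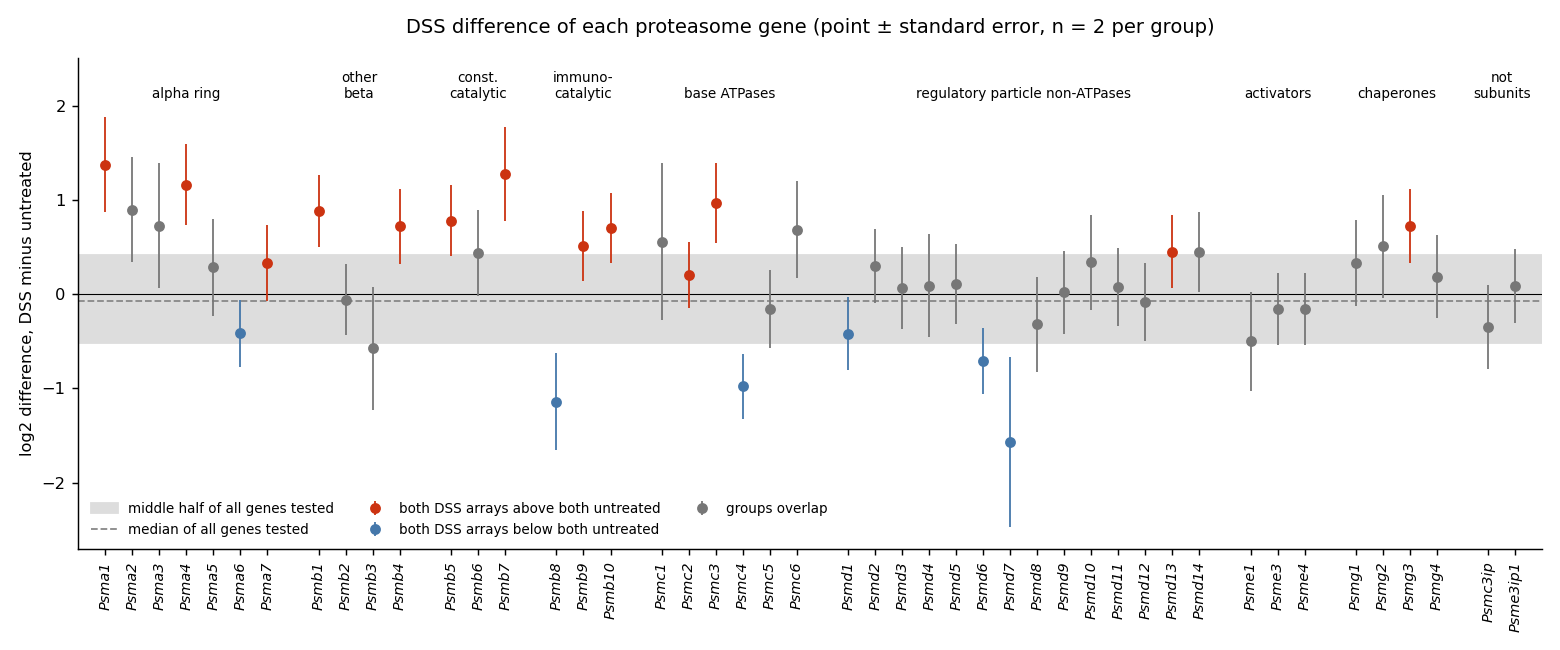
Log2 difference, DSS minus untreated, for the 46 tested genes grouped by role; points are estimates, bars are standard errors (n = 2 per group), colour shows separation, and the grey band spans the 25th to 75th percentile of all genes tested (-0.52 to 0.42). Of the 17 core subunits 9 are red (52.9%) and 2 blue (11.8%). Of the 20 regulatory particle genes 3 are red (15%) and 4 blue (20%). Over all genes 17.2% were separated higher and 23.8% lower.

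The catalytic subunits were compared to ask whether the immunosubunits changed more than the subunits they replace. All 3 constitutive genes had positive differences, as did Psmb9 and Psmb10, while Psmb8 gave opposite directions on its 2 probe sets. Of these, Psmb7 passed the filter through the DSS arrays alone, so its direction was set by the filter. The change of Psmb9 did not exceed that of Psmb6 by more than the spread between arrays. That of Psmb8 did not exceed that of Psmb5 on either probe set, but its size varied with the probe set. The pair of Psmb10 and Psmb7 cannot answer the question, because Psmb7 had to be higher after DSS to be tested.

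Psmb5, the chymotrypsin-like beta5 subunit, had signals of 2516 and 2899 untreated against 4188 and 5170 after DSS, a log2 difference of 0.78 ± 0.38. Its groups did not overlap. Psmb8 (beta5i), its replacement, had 5998 and 15917 untreated against 4435 and 4406 after DSS on its brightest probe set, of the _x_at kind, a difference of -1.14 ± 0.52. On its other kept probe set, of the _a_at kind, it had 4484 and 3302 untreated against 4641 and 7006 after DSS, a difference of 0.56. The groups were separated on both, in opposite directions, and untreated replicate 2 was the highest array on the first and the lowest on the second. Probe sets of the _x_at and _s_at kinds may also detect similar transcripts of other genes. Of the 46 genes 7 were read on such a probe set, Psmb8 among them, and their values are uncertain.

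Psmb6 (beta1), the caspase-like subunit, had signals of 4124 and 8573 untreated against 7418 and 8754 after DSS, a difference of 0.44 ± 0.46. Untreated replicate 2 lay within the range of the DSS arrays. Psmb9 (beta1i) had 2049 and 1720 untreated against 2606 and 2768 after DSS, a difference of 0.51 ± 0.37. Its DSS arrays were higher by less than 2-fold. Its neighbour Tap1, which starts at the other end of the stretch printed above, had 2073 and 2487 untreated against 2017 and 2936 after DSS (0.10 ± 0.40), and its groups overlapped.

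Psmb7 (beta2), the trypsin-like subunit, was dim, with 144 and 174 untreated against 423 and 433 after DSS, a difference of 1.27 ± 0.50. The untreated arrays lay below their medians. Psmb10 (beta2i) had 2439 and 2600 untreated against 3789 and 4450 after DSS, a difference of 0.70 ± 0.37, with close replicates and separate groups. None of the 6 catalytic genes passed limma's adjusted test, the adjusted p being between 0.649 and 0.793.

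**Figure D2:**
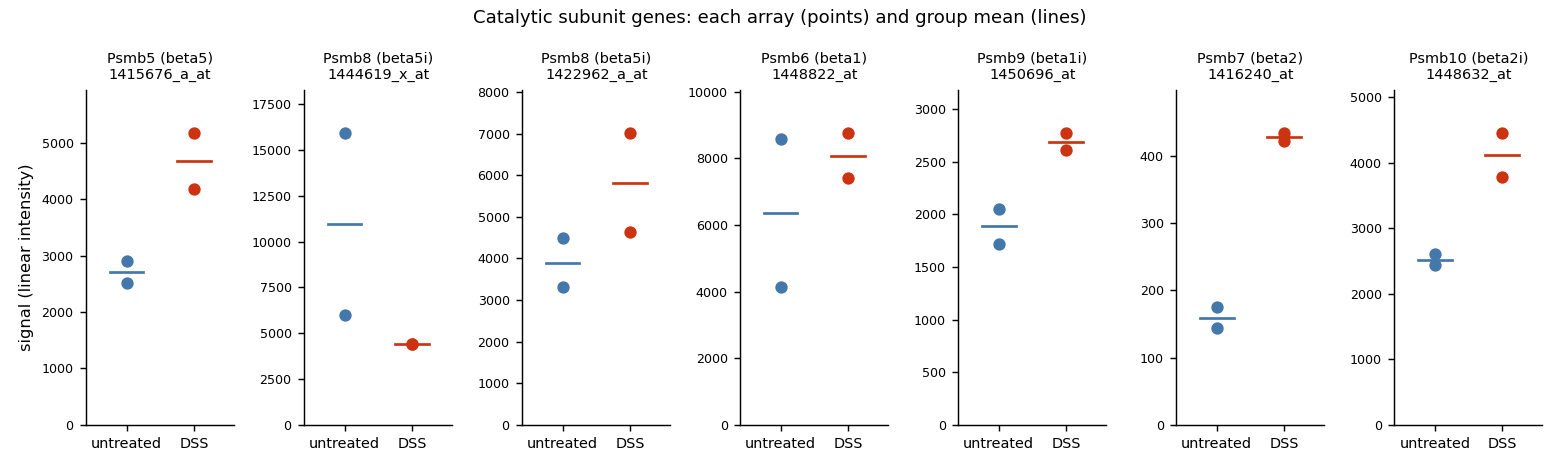
Linear signal of the catalytic subunit genes on each array (points) with group means (lines), each subunit beside its replacement and both kept Psmb8 probe sets shown; every axis starts at 0. The Psmb8 probe sets point in opposite directions, with the _x_at one highest at 15917 in untreated replicate 2 and the _a_at one highest at 7006 in DSS replicate 2.

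For each exchange the within-array log2 ratio of immunosubunit to constitutive subunit was compared between groups. Such a ratio shows unequal change and says nothing about which probe set reports more protein. The change of Psmb9 exceeded that of Psmb6 by 0.07, with within-group SDs of 0.92 in untreated and 0.11 in DSS samples (exact two-sided permutation p = 1). For Psmb10 minus Psmb7 the value was -0.57 (SD 0.10 and 0.14; exact p = 0.333). It is given as a description, because Psmb7 passed the filter through the DSS arrays alone and so had to be higher there. It also moved with the treatment of low signals, to -0.93 after quantile normalization and -0.35 with 100 added to the signal. The change of Psmb8 minus that of Psmb5 was -1.92 on the _x_at probe set (SD 0.85 and 0.22; exact p = 0.333) and -0.21 on the _a_at probe set (SD 0.45 and 0.20; exact p = 0.667). With 2 arrays against 2 the smallest p this exact test allows is 0.333, so these 3 comparisons could not pass a threshold of 0.05 before or after adjustment. Without untreated replicate 2 the Psmb9 and Psmb6 value became -0.58.

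Of the 7 alpha ring genes tested 6 had positive differences, and several had untreated replicates far apart. Psma1 had signals of 3198 and 1286 untreated against 4860 and 5825 after DSS, a difference of 1.38 ± 0.51. Psma4 had 1012 and 698 against 1581 and 2336 (1.16 ± 0.43). Both were separated, and Psma7 (0.33 ± 0.40) was separated by a narrow margin, with 2971 and 1902 against 2990 and 3025.

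Psma2 had signals of 10118 and 3362 untreated against 9743 and 12178 after DSS, a difference of 0.90 ± 0.56. Psma3 had 18914 and 4413 against 14020 and 16357 (0.73 ± 0.66), and Psma5 had 15936 and 6281 against 10775 and 13792 (0.28 ± 0.51). In these 3 genes the DSS arrays were near untreated replicate 1 and well above untreated replicate 2. Psma6 was lower on both DSS arrays on its brightest probe set (39538 and 46097 against 28048 and 36522; -0.42 ± 0.36), but differed by 0.52 on the next brightest.

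Untreated replicate 2 was at least 2-fold below replicate 1 for 4 of the 7 alpha genes, against 16.2% of all genes. The median log2 difference of the alpha ring was 0.73 with both untreated arrays, 1.42 without untreated replicate 1 and 0.02 without untreated replicate 2. The alpha ring difference thus depended on untreated replicate 2. The core as a whole had 0.68 and 0.45 in turn.

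**Figure D3:**
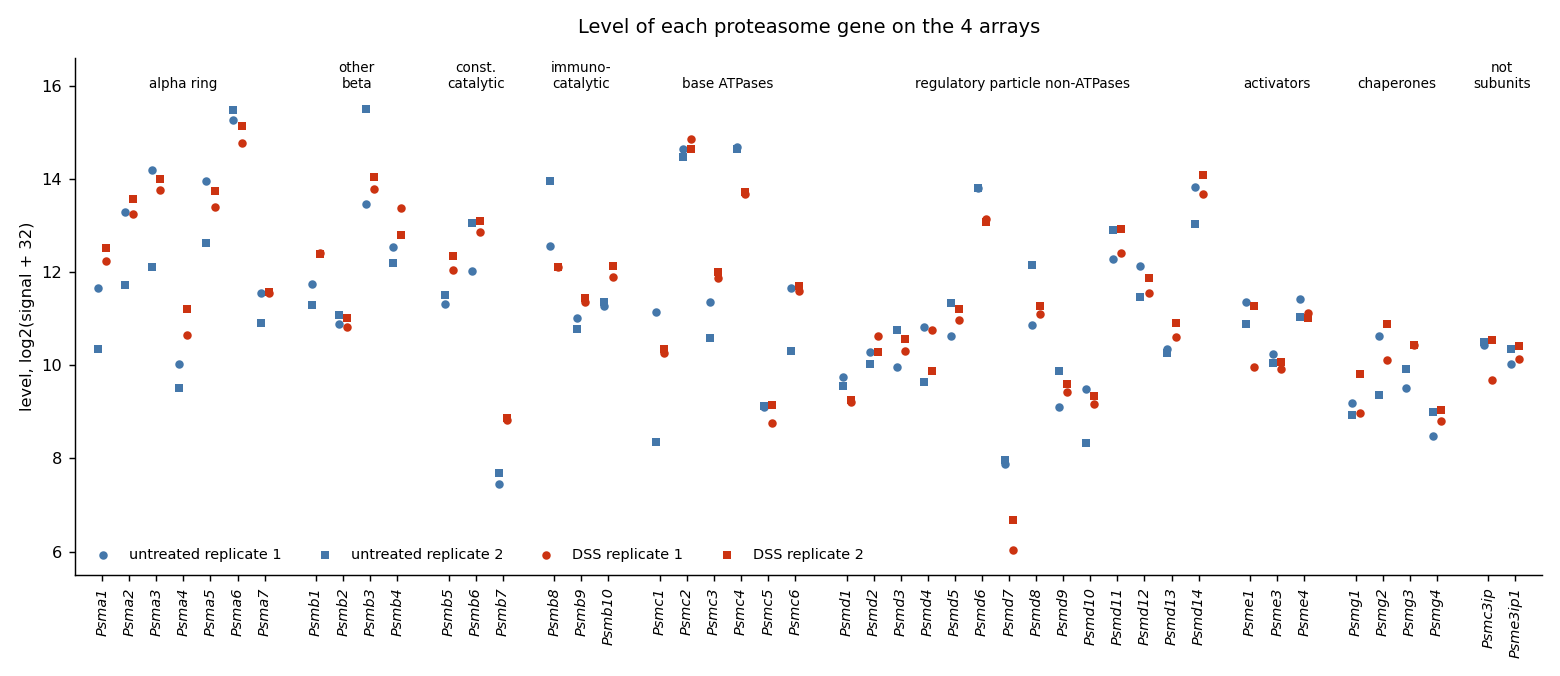
Level of each tested gene, log2(signal + 32), on the 4 arrays, by role; circles are replicate 1 and squares replicate 2, blue untreated and red DSS. For Psma1, Psma2, Psma3, Psma5, Psmc1 and Psmc6 the blue square of untreated replicate 2 stands apart below the other arrays, while for Psmb3, Psmb8 and Psmd8 it stands above them.

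The other beta subunits, which shape the ring without proteolytic activity, were mixed. Psmb1 had signals of 3391 and 2495 untreated against 5409 and 5370 after DSS, a difference of 0.88 ± 0.38, with separate groups. Psmb4 had 5950 and 4700 against 10721 and 7090 (0.72 ± 0.40), also separate, and its other probe set gave 0.89. Psmb3 had 11378 and 47010 against 14125 and 17042 (-0.58 ± 0.65). Its untreated arrays lay on either side of the DSS arrays. Psmb2 (-0.06 ± 0.38) had overlapping groups.

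Of the 6 ATPases that form the base and thread substrates into the core, 2 were separated higher and 1 lower. Over all genes the shares were 17.2% and 23.8%, so these counts lie near the background. Psmc3 had signals of 2603 and 1512 untreated against 3731 and 4087 after DSS, a difference of 0.96 ± 0.42. Psmc4 was lower, at 26560 and 25681 against 13094 and 13449 (-0.98 ± 0.35, limma adjusted p = 0.649). Replicates of Psmc4 were close, yet its other kept probe set had 1535 and 1251 against 1688 and 1548, a difference of 0.22.

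Psmc2 was separated by a small margin (0.20 ± 0.35), with 25621 and 22694 against 29969 and 25626. Psmc6 had signals of 3201 and 1229 untreated against 3096 and 3332 after DSS (0.68 ± 0.52), and Psmc1 had 2228 and 296 against 1201 and 1267 (0.56 ± 0.84). Both repeated the pattern of the alpha genes, with untreated replicate 2 lowest. Psmc5 differed by -0.16 ± 0.41 with overlapping groups.

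The 14 Psmd genes encode the other regulatory particle subunits, among them ubiquitin receptors, scaffold and lid subunits, and the chaperones Psmd5, Psmd9 and Psmd10 that help build the base. Their median log2 difference was 0.07, and 10 of the 14 overlapped between groups, against 7330 of all 12424 genes. Psmd6, a lid subunit, had signals of 14325 and 14451 untreated against 9012 and 8593 after DSS (-0.71 ± 0.35). Its replicates were close and its groups separate, but its other probe set differed by 0.01. Psmd7, the lid partner of the deubiquitinase Psmd14, had 205 and 218 against 33.5 and 70.8 (-1.57 ± 0.90). Its difference was -0.59 on another probe set, read when no filter was applied, and -2.09 and -1.04 with 1 and 100 added to the signal. It was the dimmest of the tested members, and its DSS arrays lay below the array medians.

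Psmd13, a lid subunit, had signals of 1283 and 1202 untreated against 1538 and 1904 after DSS (0.45 ± 0.38), the only Psmd gene separated higher. Psmd1, a base scaffold, had 828 and 724 against 560 and 584 (-0.42 ± 0.39), separated lower. Psmd14, the deubiquitinase itself, had overlapping groups and a difference of 0.45 ± 0.42. The other 9 Psmd genes, all overlapping, had differences from -0.32 (Psmd8) to 0.34 (Psmd10), with the ubiquitin receptor Psmd4 at 0.09 and the scaffold Psmd2 at 0.30.

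The activators, which cap the core in place of the regulatory particle, did not separate. Psme1, the PA28 alpha chain and like the immunosubunits induced by interferon-gamma, had signals of 2614 and 1856 untreated against 976 and 2454 after DSS (-0.50 ± 0.52). The DSS replicates of Psme1 differed from each other by 1.30 on the log2 scale. It was the only one of the 46 genes whose DSS replicates differed by at least 2-fold, against 13.4% of all genes. Most genes in that share are dim, 1590 of 8432 with a mean signal under 1000. From 1000 to 20000 it was 1 of 36 proteasome genes and 74 of 3775 genes, so the count is near this background. The nuclear PA28 chain Psme3 had 1188 and 1025 against 937 and 1043 (-0.15 ± 0.38), and Psme4 (PA200) had 2706 and 2085 against 2196 and 2049 (-0.16 ± 0.38).

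The 4 Psmg chaperones, which assemble the alpha ring, all had positive differences on their brightest probe sets. Psmg3 had signals of 696 and 935 untreated against 1350 and 1349 after DSS (0.72 ± 0.39), and its groups were separate. Its second kept probe set gave -1.79, with signals of 293 and 392 against 13.9 and 220.3. Psmg2 had 1560 and 626 against 1074 and 1879 (0.51 ± 0.55), and Psmg1 had 552 and 457 against 469 and 870 (0.33 ± 0.46). These and Psmg4 (0.18 ± 0.44) overlapped between groups. The other kept probe sets of Psmg2 gave -1.60 and 1.38. The 2 genes that are no subunits also overlapped, Psmc3ip at -0.35 ± 0.44 and Psme3ip1 at 0.09 ± 0.39.

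Probe sets of the same gene often disagreed. Of the 46 genes 21 had more than 1 kept probe set, and in 13 of these (Psma1, Psma3, Psma6, Psmb1, Psmb8, Psmc2, Psmc4, Psmd6, Psmd11, Psmd13, Psme4, Psmg2 and Psmg3) the kept probe sets differed in sign. The brightest probe set had the lower difference of the 2 brightest in 13 of the 21 genes and the higher in 8, and the pair had opposite signs in 10. The difference also varied with level over all genes. Its median was -0.29 for 3854 genes with a mean signal under 300, 0.18 for 1015 genes from 3000 to 10000, and -0.48 for 121 genes of 30000 or more, of which 57.9% were separated lower. Psma6 is the 1 proteasome gene in that brightest class. In the class from 3000 to 10000 the 10 proteasome genes had a median of 0.71. What part level has in these disagreements was not tested.

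**Figure D4:**
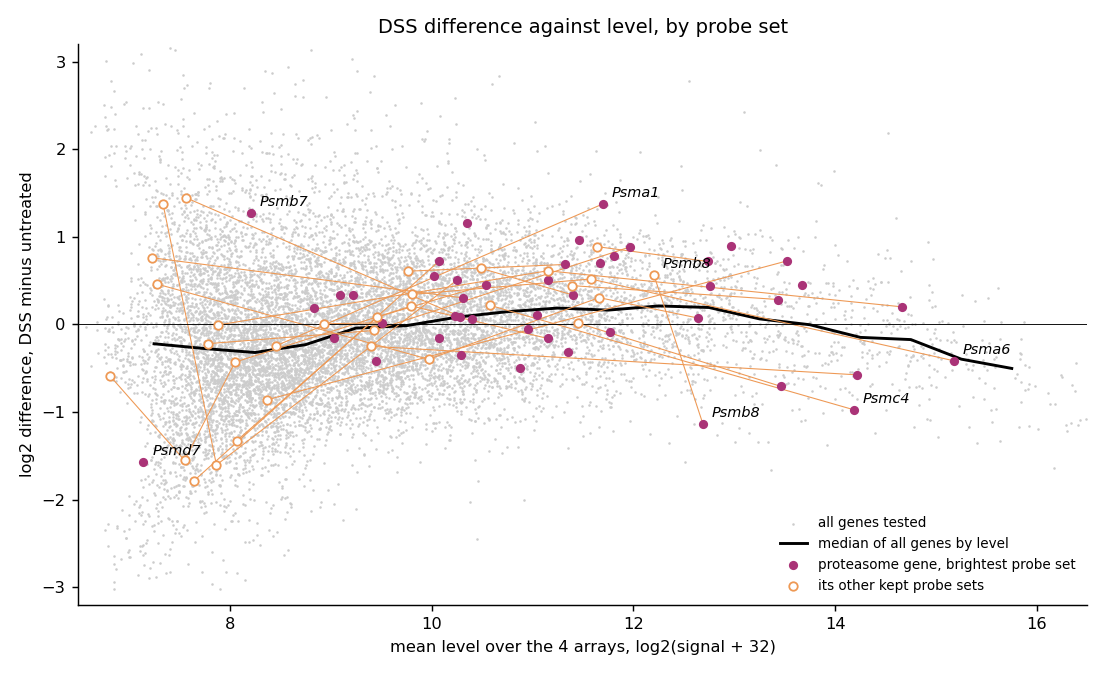
Log2 difference, DSS minus untreated, against mean level, log2(signal + 32), for all genes tested (grey; 32 lie beyond the plotted range of 3.2), with their median by level (black line). Proteasome genes are shown on their brightest probe set (filled) and joined to their other kept probe sets (open); the Psmb8 points lie on opposite sides of 0.

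Other genes of the pathway were read from lists of partners and of neighbouring functions. Of 25 genes that supply, shuttle or regulate the ubiquitin-proteasome system 17 were on the array under these symbols and tested. Limma called 0, and 7 were higher and 1 lower on both DSS arrays, against 17.2% and 23.8% of all genes. For genes with a mean signal of 1000 or more the shares were 24.1% and 15.7%, and the listed genes lie on both sides of that level. The median of the 17 was 0.43. The scaffold Ecpas, which tethers regulatory particle to core, had signals of 235 and 765 untreated against 1145 and 795 after DSS (1.10 ± 0.59). The proteasome-bound deubiquitinase Uchl5 had 1133 and 651 against 1350 and 1643 (0.77 ± 0.44), likewise separate. Pomp, the chaperone of beta ring assembly, had 2517 and 883 against 1954 and 2166 (0.45 ± 0.54), and its groups overlapped. The inhibitor Psmf1 (0.31 ± 0.39) was separated higher, while Nfe2l1, the transcription factor NRF1 that drives proteasome genes, was separated lower (-0.46 ± 0.41).

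Of 12 genes of class I presentation all were tested, 0 called, 6 higher and 0 lower on both DSS arrays, against 17.2% and 23.8% of all genes, with a median of 0.29. These genes too lie on both sides of a mean signal of 1000, above which 24.1% of genes were higher and 15.7% lower. The thiol oxidoreductase Pdia3 had signals of 238 and 186 untreated against 747 and 590 after DSS (1.52 ± 0.44), and the peptide-trimming aminopeptidase Erap1 had 302 and 285 against 726 and 738 (1.23 ± 0.41). In both genes the DSS arrays were at least 2-fold above the untreated arrays. Of 18 genes of the interferon-gamma axis 14 were tested, 0 called, 6 higher and 2 lower, against the same shares of all genes, with a median of 0.26. The chemokines Cxcl9 (32.9 and 64.4 against 570 and 1000.4; 3.32 ± 0.61) and Cxcl10 (2.41 ± 0.76) had the smallest p. Both lay below the array medians when untreated and passed the filter through the DSS arrays alone, so they had to differ to be tested. Both are also made by macrophages. Ifng itself had 996 and 995 untreated against 1302 and 808 after DSS (0.04 ± 0.42), and Irf1, which drives immunosubunit genes, had 4610 and 8246 against 4339 and 4764 (-0.44 ± 0.42). Both overlapped between groups.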

How the data were processed

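Per the labels' protocols, PicoPure extraction gave total RNA, RiboAmp HS amplified it, and each biotin-labelled sample was hybridised to 1 array. The values the authors deposited are linear intensities, 1 per probe set and array, for which the submitters' processing notes name GCOS. No source used here states its version or summary algorithm. The number of arrays limits the precision.

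Of 45101 probe sets, those with 1 platform symbol were named. By gene number all 48 proteasome genes matched RefSeq's gene table (GRCm38.p6), with 0 symbols updated. Signals were taken as log2(signal + 32) without further normalization. Probe sets above the median of their array on at least 2 of 4 arrays were kept, and the brightest per gene was fitted in R 4.3.3 with limma 3.58.1 (lmFit, eBayes with intensity trend, group as the only term, Benjamini-Hochberg over 12424 genes at 0.05). The step was run on simulated data, where recovery of changed genes was required only at a spread far below that of these arrays. Its power at the real spread is not reported here. Ratios were compared by exact two-sided permutation. Sequences are RefSeq's; some genes have no entry in the table used.

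Values on every array are given for catalytic and activator genes and for the 3 members of each other role with the largest moderated t; other lists name the 2 genes with the smallest p. Genes with probe sets of mixed sign are named too. Array values of Psma5, Psma7, Psmc1 and Psmd1, and Tap1, Pomp, Psmf1, Nfe2l1, Ifng and Irf1, were added after values were seen. Members and lists were chosen with earlier results of these data known. The alternatives tried were 2 scalings, 2 pseudocounts, no filter, 2 ways of choosing probe sets, no intensity trend, a replicate block, and leaving out each array.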

Additional observations from a re-analysis of the deposited data

How the results depend on the processing

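Limma called 0 genes, and so 0 proteasome genes, as in the report, under either other scaling, either other pseudocount, no filter, no intensity trend, probe sets other than _x_at and _s_at preferred, and without either DSS array. It called 3 genes, 0 of them proteasome genes, on the mean over each gene's probe sets. Leaving out 1 array gave 0 to 1791 called genes and 0 to 14 called proteasome genes. The 1791 (14.4% of genes) and the 14 (10 higher, 4 lower, 30.4% of members) came without untreated replicate 1, and 755 genes with 1 member, Psmc4, without untreated replicate 2; the lone array is then assumed to vary like the others. A replicate block gave 67 called genes, 0 of them proteasome genes. Same-numbered arrays deviated from their group means with a correlation of 0.052 across genes, and no label says that a number pairs arrays, so this pairing is not used.

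Of proteasome genes, 23 were separated higher after scaling to a common median, with a median log2 difference of 0.59 against 0.25 for all genes. With probe sets averaged 10 were higher and 5 lower, against 2089 and 2913 of all 12424 genes. Their median was then 0.13 against -0.07 for all genes. The core median was 0.49 in that setting, with 7 of the 17 core genes higher. Leaving out 1 array gave 14 to 25 higher, against 25.5% to 36.9% of all genes, 7 to 15 lower, against 34.3% to 47.7%, and a median of 0.11 to 0.36. The change of Psmb9 minus that of Psmb6 ranged from -0.58 to 0.72 without 1 array, below 0 without untreated replicate 2 or DSS replicate 1. That of Psmb8 minus Psmb5 ranged from -2.52 to -1.32, and that of Psmb10 minus Psmb7 from -0.67 to -0.48, and the last was -0.93 after quantile normalization, -0.72 with 1 and -0.35 with 100 added to the signal. With probe sets ending in neither _x_at nor _s_at, Psma6 turned to 0.52 and Psmb8 to 0.56. With probe sets averaged, Psma6 turned to 0.15, Psmd13 to -0.26 and Psmg3 to -0.53. Dim genes such as Psmb7 and Psmd7 are limited by signal near the array medians.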
